A study of Homo sapiens with 4 samples.

Results

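Cytosolic ribosomal protein genes were followed in C4-2 prostate cancer cells transfected with an siRNA pool against RRM2 or with a scrambled siRNA. The members were chosen by gene symbol: RPL or RPS followed by a number and, where present, a suffix, together with RPLP0, RPLP1, RPLP2, RPSA and FAU, if at least 10 counts were present in 2 or more libraries. Of 27275 rows in the count table, 84 carried such a symbol and 82 were kept, 50 for proteins of the large subunit and 32 for proteins of the small subunit. RPL3L, with raw counts of 2 and 3 in the scrambled siRNA libraries and 1 and 3 in the RRM2 siRNA libraries, was left out. RPL39L, with raw counts of 0 and 2 against 0 and 1, was also left out. The kept member nearest to the limit was RPL10L, with raw counts of 280 and 288 against 316 and 293.

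C4-2 is a castration-resistant line derived from LNCaP, and RRM2 is the small subunit of ribonucleotide reductase, which makes the deoxynucleotides for DNA synthesis. Each group, RRM2 siRNA (a SMARTpool delivered with RNAiMAX) and scrambled siRNA, had 2 libraries of total RNA. The cells carried no other labelled treatment or engineered allele, and the time from transfection to RNA extraction was not stated for these libraries. Whether replicates are separate cultures is not stated either, so the p-values cover the variation of these 4 libraries, which may be technical.

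The libraries held between 27844121 and 29941671 counts. Normalized counts below are estimated counts divided by the TMM-scaled library size relative to the mean of the libraries, a scaling that assumes most genes do not change. RRM2 itself had 1332 and 1238 normalized counts with scrambled siRNA against 118 and 125 with RRM2 siRNA, for a log2 fold change of -3.41 ± 0.08 (SE, adjusted p = 2.68e-13 by edgeR's quasi-likelihood test). The luminal prostate marker KLK3 matched the label of the line, with 158797 to 179269 normalized counts, whereas the blood marker PTPRC and the fibroblast markers COL1A2 and DCN were at 0 to 3 normalized counts and COL1A1 was at 945 to 1128. The share of ribosomal RNA was 2.14% with scrambled siRNA in both libraries, and 2.45% and 6.13% in replicates 1 and 2 of RRM2 siRNA.

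Ribosomal proteins assemble with ribosomal RNA in the nucleolus into a large subunit, which forms peptide bonds, and a small subunit, which reads the mRNA. Their mRNAs begin with a 5′ terminal oligopyrimidine tract (TOP), a cytidine followed by a run of pyrimidines through which mTORC1 signalling and the protein LARP1 set how well they are translated. Cells make the proteins in near-equal amounts, and several unassembled members bind MDM2, the ubiquitin ligase of p53. Levels of ribosomal protein mRNA, not of protein or of translation, were measured here.

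The start regions of the following members are shown because the TOP tract is the sequence that most of these genes have in common. RefSeq promoter sequences (GRCh38.p14) matched 67 of the 82 members. Each line runs from 20 bases before to the 10 bases from the annotated start onward, on the gene's strand. Capitals begin at the first C within 5 bases of the start, on either side, that is followed by at least 4 C or T, and end with the last pyrimidine of that stretch inside the window. The pyrimidines can extend further upstream in lower case, as they do in RPL13A.
RPL36A (chrX:101390991-101391020, + strand): ttccgtttgcctcgcggtttCTTTCTTTCC
RPL13A (chr19:49487588-49487617, + strand): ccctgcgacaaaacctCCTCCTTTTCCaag
RPL35A (chr3:197950170-197950199, + strand): ccacgcggcggggcctcgtCCTTCTCTTac
RPS6 (chr9:19380227-19380256, - strand): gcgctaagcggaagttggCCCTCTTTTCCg
RPLP1 (chr15:69452798-69452827, + strand): gctgcgtataggcgcgagagCCCCTTTCCT
RPS27 (chr1:153990742-153990771, + strand): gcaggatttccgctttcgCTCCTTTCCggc
RPL22L1 (chr3:170870186-170870215, - strand): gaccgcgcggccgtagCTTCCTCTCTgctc
RPL7L1 (chr6:42879596-42879625, + strand): cgcgccggaagtgcggcgccgtagctagga
RPL10L (chr14:46651772-46651801, - strand): gcgcgcaggcgtagttaagagagcgcattt
RPL36A, RPL13A and RPL35A were among the members with the lowest fold changes, RPLP1 and RPS27 among those with the highest, and all of them had such a stretch. RPL7L1 and RPL10L, both paralogs of another member, had none.

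Read from the annotated start onward, whether or not the pyrimidines began upstream of it, C followed by at least 4 C or T was present in 48 of the 67 members (71.6%), against 5.14% of all 27305 genes with a promoter sequence and 6.96% of those that were tested. A stretch beginning at any C within 5 bases on either side gave 55 of 67 members (82.1%), against 25.2% of all genes and 29.2% of those tested. The 12 members with none there were RPL6, RPL7L1, RPL9, RPL10L, RPL15, RPL17, RPL26L1, RPL27, RPS4X, RPS15, RPS26 and RPS29. Among 300-base promoters, searched on both strands, the letters CCGGAAG of an ETS site were in 34.3% of members, against 12.2% of all genes and 20.6% of those tested. GGGCGG (GC box) was in 58.2% of members, above the 48.3% of all genes but below the 74.4% of those tested. TATAAA was in 10.4% of members, below the 14% of all genes but above the 8.79% of those tested. CACGTG (E-box) was in 7.46% of members, against 8.77% of all genes and 12.4% of those tested. These matches describe letters only.

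Ribosomal protein mRNAs were lower with RRM2 siRNA, by a small and similar amount across both subunits. Of the 82 members, all of which passed the expression filter, 76 were lower at an adjusted p under 0.05 and 6 did not pass, whereas 25.0% of the 15840 genes tested were lower (edgeR's quasi-likelihood test, Benjamini-Hochberg adjustment over all genes tested). No member was higher: the count was 0 with edgeR, DESeq2 and limma voom, and also 0 at an unadjusted p under 0.05 with edgeR, whereas 25.4% of all genes were higher. The median log2 fold change of the members was -0.26, or -16.8%, and that of all genes tested was -0.0017. Single members lay between -0.54 and 0.03. With the fold change over 1.5 that the study used, 0 members were called in either direction, against 5.25% of all genes called lower and 5.90% called higher.

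**Figure D1:**
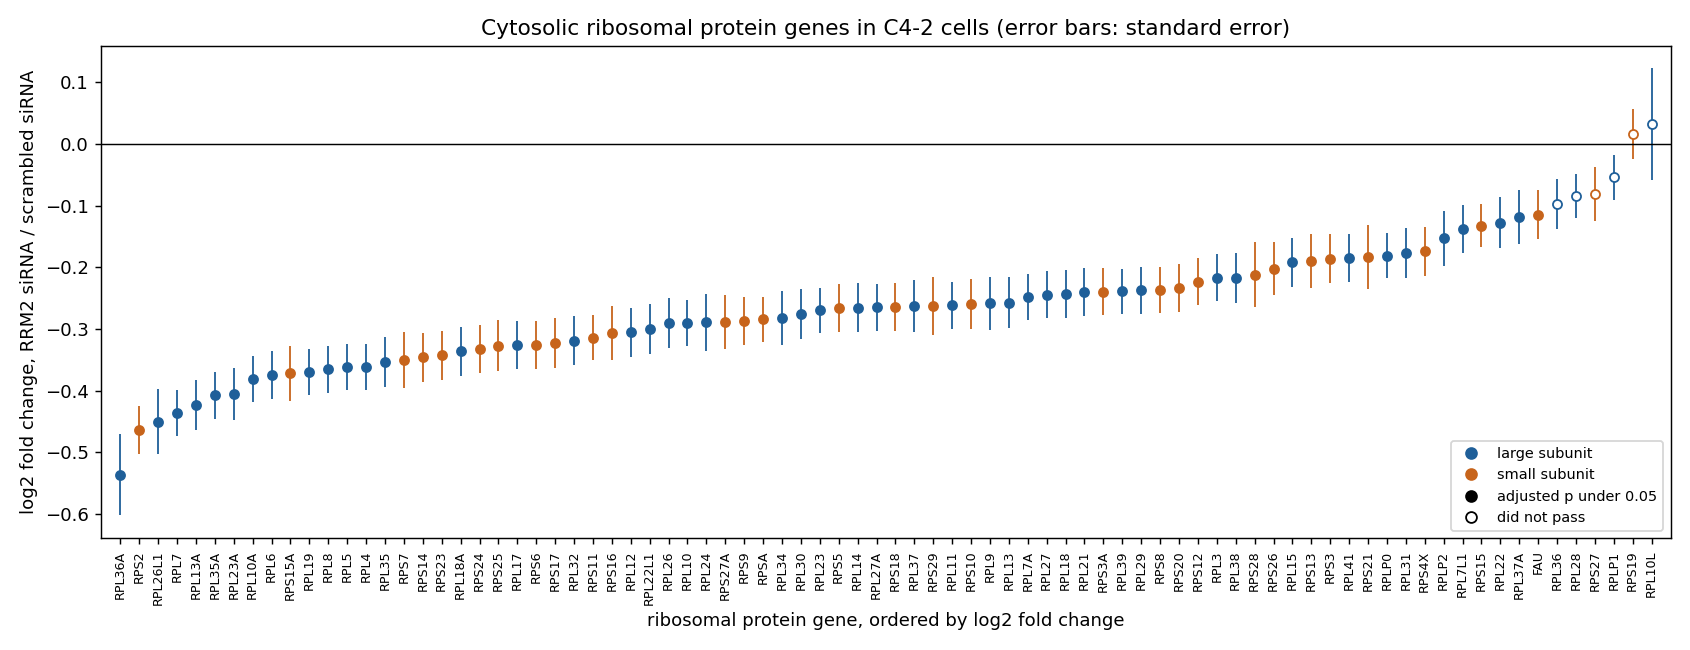
Log2 fold change of each of the 82 ribosomal protein genes between RRM2 siRNA and scrambled siRNA (y axis), ordered from lowest to highest (x axis), with the standard error as bars. Filled points passed an adjusted p under 0.05; 76 members lay below 0 and passed, and the 6 open points at the right, from RPL36 to RPL10L, did not.

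The fold changes were narrowly spread. They were under -0.4 in 7 members, from -0.4 to -0.3 in 21, from -0.3 to -0.2 in 34, from -0.2 to -0.1 in 14, and above -0.1 in 6. The interquartile range of the members was 0.12 on the log2 scale, against 0.43 for all genes tested. The median standard error of a member was 0.04, and apart from the steps between RPL36A and RPS2 and between RPLP1 and RPS19, neighbours in this order lay closer together than that.

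Large and small subunit genes moved by a similar amount. Of the large subunit genes, 46 of 50 were lower and the median log2 fold change was -0.27 (interquartile range -0.35 to -0.22). Of the small subunit genes, 30 of 32 were lower and the median was -0.26 (interquartile range -0.32 to -0.20). Among all genes tested, 25.0% were lower and the median was -0.0017. The ratio of small to large subunit counts was 0.556 and 0.559 in the scrambled siRNA libraries and 0.555 and 0.553 in the RRM2 siRNA libraries. All members together made up 4.94% and 5.22% of the counts with scrambled siRNA against 4.28% and 4.14% with RRM2 siRNA. With structural RNA genes left out of the totals, these shares were 5.14% and 5.44% against 4.49% and 4.51%, so the shares did not overlap between groups by either total. A share or normalized count is relative to the rest of the RNA, and in bulk RNA a change in the mix of cells and a change of RNA per cell cannot be told apart.

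The libraries of the scrambled siRNA group differed from each other in these genes more than in others. Replicate 2 was above replicate 1 in 82 of 82 members, by a median of 0.10 on the log2 scale, whereas it was above in 6181 of 12329 genes averaging 100 normalized counts or more. RRM2 siRNA replicate 2 was above replicate 1 in 59 of 82 members, by a median of 0.02. Among the same 12329 genes it was above in 6400, by a median of 0.0039. Relative to the mean of the scrambled siRNA libraries, the median member lay at -0.05 and 0.05 in those libraries and at -0.27 and -0.26 in the RRM2 siRNA libraries. Both RRM2 siRNA libraries were below both scrambled siRNA libraries in 79 of 82 members, against 37.4% of all genes tested. Leaving out scrambled siRNA replicate 1 gave 79 members lower and a median of -0.32, and leaving out replicate 2 gave 71 and -0.22. Without structural RNA genes, whose share was highest in RRM2 siRNA replicate 2, 76 members were lower and the median was -0.27.

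**Figure D2:**
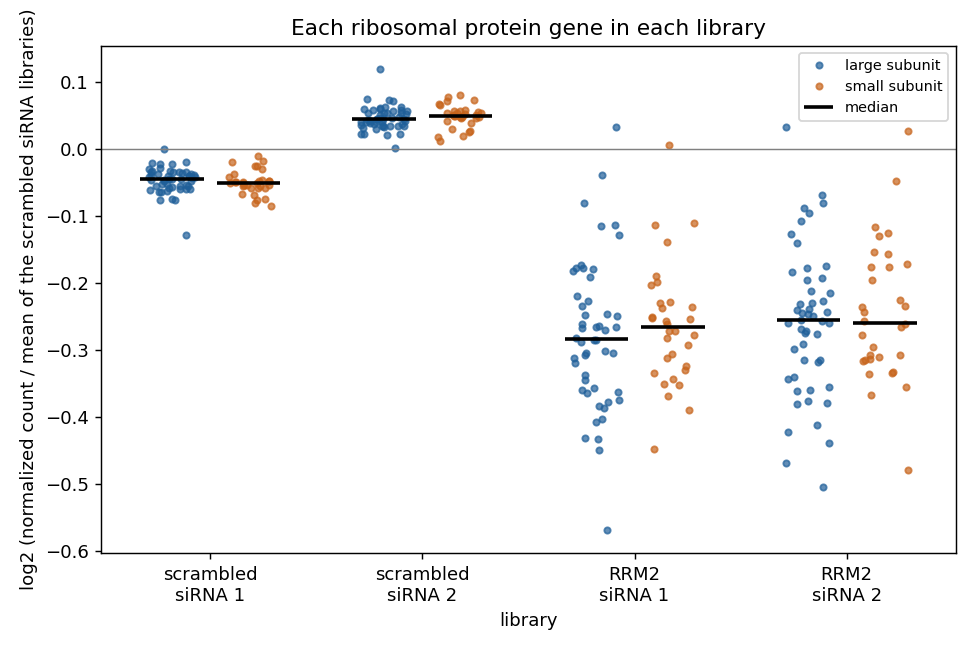
Log2 ratio of each member's normalized count to the mean of the scrambled siRNA libraries (y axis) in each of the 4 libraries (x axis), with large and small subunit genes side by side and black bars for medians. The scrambled siRNA libraries mirror each other because their own mean is the reference; the medians lie at -0.05 and 0.05 there and at -0.27 and -0.26 in the RRM2 siRNA libraries.

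Among the 6 members with the lowest fold changes, only RPS2 was of the small subunit. The whole list held 50 large and 32 small subunit genes. RPS2, a protein at the mRNA entry of the small subunit, had 48480 and 51377 normalized counts with scrambled siRNA against 36602 and 35811 with RRM2 siRNA. Its log2 fold change was -0.46 ± 0.04 (SE, edgeR adjusted p = 1.72e-07). RPL7, a protein of the large subunit, had 21758 and 22833 normalized counts against 16316 and 16630. The groups were well apart, with a log2 fold change of -0.44 ± 0.04 (SE, edgeR adjusted p = 2.07e-07). RPL35A, one of the genes mutated in Diamond-Blackfan anaemia, had 24548 and 25932 normalized counts against 19084 and 18964. Its log2 fold change was -0.41 ± 0.04 (SE, edgeR adjusted p = 4.50e-07). RPL26L1, a paralog of RPL26, had 980 and 1007 normalized counts against 736 and 718. Its log2 fold change was -0.45 ± 0.05 (SE, edgeR adjusted p = 5.38e-06).

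The other 2 of these 6 values depend on how reads were shared between overlapping or near-identical genes. RPL36A, whose product lies near the tRNA exit site, had 1872 and 2223 normalized counts with scrambled siRNA against 1380 and 1443 with RRM2 siRNA, the lowest log2 fold change of the list at -0.54 ± 0.07 (SE, edgeR adjusted p = 8.67e-06). The read-through row RPL36A-HNRNPH2, which overlaps it, held 3238 and 3493 against 3666 and 3465. Summed, the rows gave 5110 and 5716 against 5046 and 4908, a log2 fold change of -0.12 that no longer passed (edgeR adjusted p = 0.05004). RPL13A, which also acts outside the ribosome as a translational silencer in myeloid cells, had 29544 and 31757 normalized counts against 23105 and 22609, a log2 fold change of -0.42 ± 0.04 (SE, edgeR adjusted p = 5.91e-07). The row of its processed pseudogene RPL13AP5 held still more, 49939 and 53578 against 43789 and 43303, and with all pseudogene rows of RPL13A added the log2 fold change was -0.31.

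At the other end, 6 members did not pass. RPS19, a small subunit protein and the gene most often mutated in Diamond-Blackfan anaemia, had 10826 and 11739 normalized counts with scrambled siRNA against 11329 and 11493 with RRM2 siRNA. The RRM2 siRNA values lay between the scrambled siRNA values, and the log2 fold change was 0.02 ± 0.04 (SE, edgeR adjusted p = 0.768). RPLP1, an acidic protein of the ribosomal stalk, had 10863 and 11333 normalized counts against 10802 and 10582. The groups did not overlap but lay close, with a log2 fold change of -0.05 ± 0.04 (SE, edgeR adjusted p = 0.237). RPS27, a zinc-finger protein of the small subunit, had 6153 and 6665 normalized counts against 5919 and 6195. Its groups overlapped, and the log2 fold change was -0.08 ± 0.04 (SE, edgeR adjusted p = 0.137).

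RPL28, a large subunit protein, had 11048 and 11395 normalized counts against 10609 and 10556, a log2 fold change of -0.08 ± 0.04 (SE, edgeR adjusted p = 0.0589). RPL36, also of the large subunit, had 12851 and 13904 normalized counts against 12359 and 12639, a log2 fold change of -0.10 ± 0.04 (SE, edgeR adjusted p = 0.0572). Both sat just outside the threshold and had the direction of the other members. RPL10L, an autosomal retrocopy of RPL10 used mainly in the testis, had 282 and 300 normalized counts against 297 and 297, a log2 fold change of 0.03 ± 0.09 (SE, edgeR adjusted p = 0.796). It had the largest standard error of the list and the lowest mean count, 294, and its sequence is close to that of RPL10, so the assignment of its reads is uncertain. Without scrambled siRNA replicate 1, the log2 fold changes of RPL28, RPL36 and RPS27 were -0.11, -0.16 and -0.14. RPS19 and RPL10L turned to -0.045 and -0.015 in that fit. Without scrambled siRNA replicate 2, RPL28, RPL36 and RPS27 were nearer to no change, at -0.06, -0.04 and -0.02. RPS19 and RPL10L were both at 0.075 there. RPL36, RPL28, RPS27, RPLP1 and RPS19 had means above 5000 and a TOP stretch at the start.

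**Figure D3:**
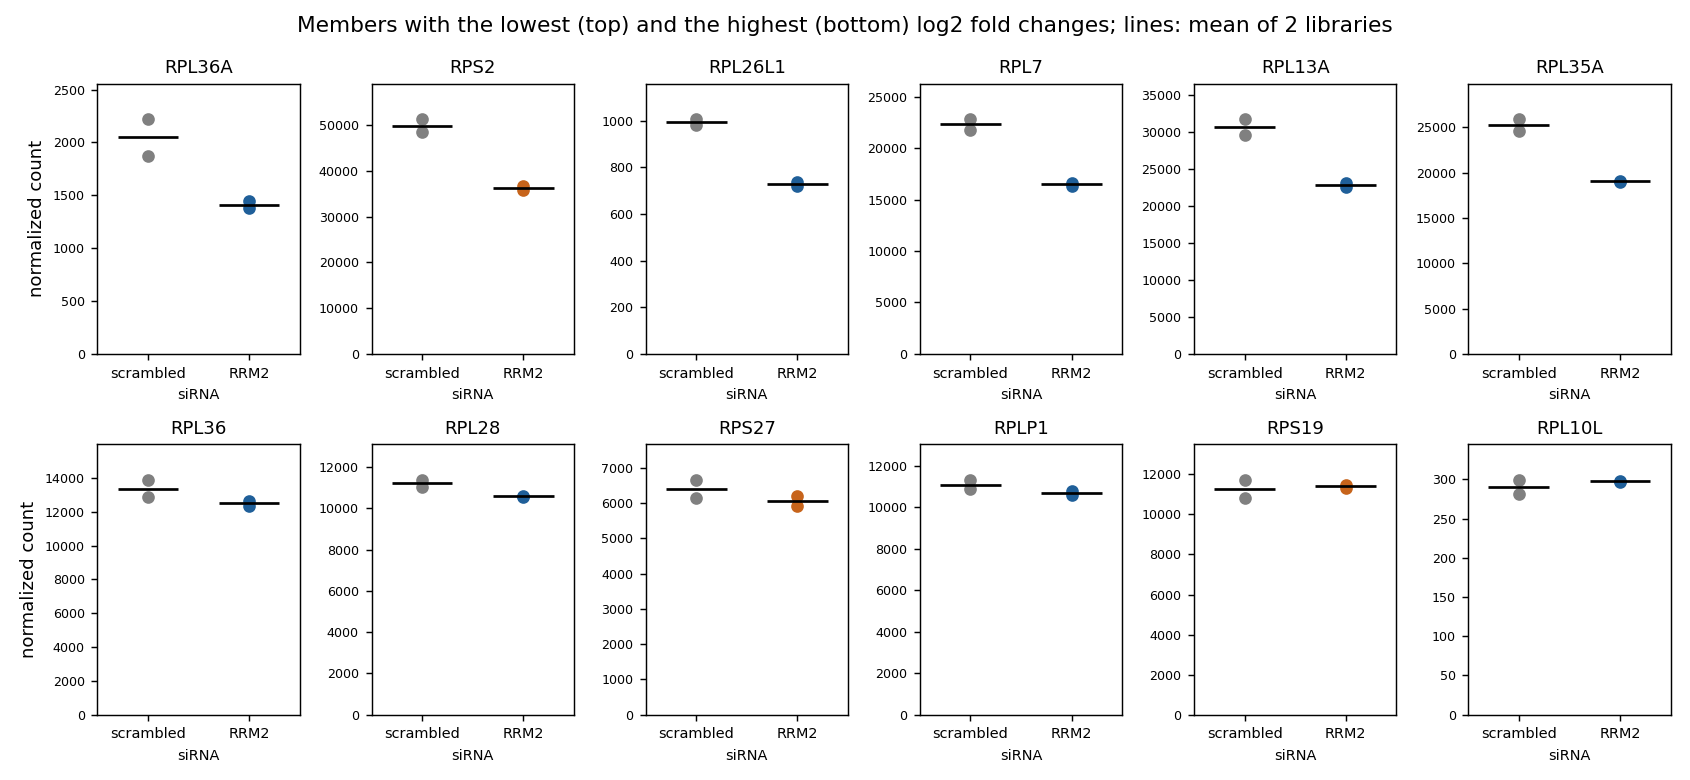
Normalized counts (y axes, from 0) of the members with the 6 lowest (top row) and 6 highest (bottom row) log2 fold changes in each library, grey for scrambled siRNA and coloured for RRM2 siRNA (blue large subunit, orange small subunit), with lines at the means of 2 libraries. In the top row both RRM2 siRNA points lie below both scrambled siRNA points; RPS27, RPS19 and RPL10L in the bottom row overlap between groups.

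Of 6 listed genes for proteins that bind MDM2 when free of the ribosome, 6 were lower with a median log2 fold change of -0.29. This was near the 92.7% and -0.26 of all members, against 25.0% and -0.0017 of all genes tested. The list (RPL5, RPL11, RPL23, RPL26, RPS7 and RPS27A) was written from general knowledge and may not be complete. RPL5, which carries the 5S ribosomal RNA to the large subunit, had 15036 and 15774 normalized counts with scrambled siRNA against 11847 and 12134 with RRM2 siRNA, for a log2 fold change of -0.36 ± 0.04 (SE, edgeR adjusted p = 1.49e-06). RPL11, its partner in that particle, had 12769 and 13451 normalized counts against 10758 and 11107, a log2 fold change of -0.26 ± 0.04 (SE, edgeR adjusted p = 4.18e-05). RPL23, which also binds MDM2, had 19582 and 20506 normalized counts against 16650 and 16595, a log2 fold change of -0.27 ± 0.04 (SE, edgeR adjusted p = 2.20e-05). In all 3 genes the groups were separate, as in 79 of 82 members. Both RRM2 siRNA libraries lay below both scrambled siRNA libraries in 37.4% of all genes tested. RPS27A, made as a fusion of ubiquitin to a small subunit protein, had 5399 and 5819 normalized counts against 4517 and 4664, a log2 fold change of -0.29 ± 0.04 (SE, edgeR adjusted p = 5.92e-05). FAU, the fusion of a ubiquitin-like protein to another small subunit protein, moved less, with 4367 and 4486 normalized counts against 4097 and 4080. Its log2 fold change was -0.11 ± 0.04 (SE, edgeR adjusted p = 0.0264), and it did not pass with DESeq2 (adjusted p = 0.0737). It also did not pass in edgeR fits that left out scrambled siRNA replicate 2 or either RRM2 siRNA library (adjusted p = 0.104 to 0.117). It overlaps the row of MRPL49, which was higher with RRM2 siRNA (4733 and 4714 against 4099 and 4157).

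The ribosomal stalk, which recruits the translation factors that hydrolyse GTP, had the smallest median of the role groups of the ribosome, -0.17. Of its 4 members, 3 were lower, against 92.7% of all members and 25.0% of all genes tested. These 4 genes are too few to set that share apart from the share of all members. RPLP0, the base of the stalk, had 38860 and 40711 normalized counts with scrambled siRNA against 35038 and 35151 with RRM2 siRNA. Its log2 fold change was -0.18 ± 0.04 (SE, edgeR adjusted p = 8.14e-04). RPLP2 had 12488 and 13842 normalized counts against 11635 and 12049, a log2 fold change of -0.15 ± 0.04 (SE, edgeR adjusted p = 0.0104), and did not pass without scrambled siRNA replicate 2 (edgeR adjusted p = 0.0904) or RRM2 siRNA replicate 1 (0.0660). RPLP1 is given above, and RPL12, at the stalk base, was lower at -0.31. The difference between the stalk and other members was not tested.

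Genes for proteins at the functional centres of the ribosome were lower in 3 of 3, 10 of 10 and 8 of 8 cases. This was near the 92.7% of all members, against 25.0% of all genes tested. The 3 proteins next to the peptidyl transferase centre, RPL3, RPL8 and RPL10, had a median log2 fold change of -0.29. RPL10, among the last proteins to join the large subunit, had 7920 and 8166 normalized counts against 6581 and 6572, a log2 fold change of -0.29 ± 0.04 (SE, edgeR adjusted p = 1.09e-05). The 10 proteins lining the peptide exit tunnel or its rim had a median of -0.31 and ranged from -0.41 (RPL23A) to -0.13 (RPL22). RPL4, which reaches into the tunnel, had the highest mean count of all members, with 57606 and 59957 normalized counts against 45706 and 45803 and a log2 fold change of -0.36 ± 0.04 (SE, edgeR adjusted p = 1.60e-06). The 8 proteins of the decoding site and the mRNA path had a median of -0.21 and ranged from -0.46 (RPS2) to -0.11 (FAU). Outside these groups, RPS6, the substrate of the S6 kinases, had 36030 and 38579 normalized counts against 29567 and 29941, a log2 fold change of -0.33 ± 0.04 (SE, edgeR adjusted p = 6.90e-06). Of 18 genes known from Diamond-Blackfan anaemia, 16 were lower, also near the share of all members, with a median of -0.26. RPS19 and RPS27 did not pass.

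Of the 4 paralog genes that were kept, 3 were lower, against 92.7% of all members and 25.0% of all genes tested. The other was RPL10L, described above, whose mean count was the lowest of the list. RPL22L1, which can replace RPL22 in the ribosome, had 6798 and 7012 normalized counts with scrambled siRNA against 5434 and 5785 with RRM2 siRNA, for a log2 fold change of -0.30 ± 0.04 (SE, edgeR adjusted p = 2.38e-05). Its counterpart RPL22 had 7340 and 7909 normalized counts against 7041 and 6918, a log2 fold change of -0.13 ± 0.04 (SE, edgeR adjusted p = 0.0178), which did not pass without scrambled siRNA replicate 2 (0.152) or RRM2 siRNA replicate 2 (0.0979). The difference between the pair was not tested. RPL7L1 had 7879 and 7891 normalized counts against 6962 and 7376, a log2 fold change of -0.14 ± 0.04 (SE, edgeR adjusted p = 0.00817), and did not pass without RRM2 siRNA replicate 1 (edgeR adjusted p = 0.180). A further pair of paralogs fell outside the symbol rule and moved in opposite directions. RPL36AL, the retrocopy of RPL36A, had 6679 and 7052 normalized counts against 5958 and 6021, a log2 fold change of -0.20 ± 0.04 (SE, edgeR adjusted p = 6.88e-04). RPS27L, a paralog of RPS27 known as a p53 target, had 1787 and 1928 normalized counts against 3137 and 3063, a log2 fold change of 0.74 ± 0.05 (SE, edgeR adjusted p = 1.47e-08).

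Members differed widely in level but little in response. Per kilobase of coding sequence (GENCODE v29), the scrambled siRNA mean was highest for RPL41, whose protein is the shortest of the list, at 377571 normalized counts, and the median member was at 32498. Whole-gene counts were divided by coding length alone, 75 bases for RPL41, so a short coding sequence raises this value. The mean count of RPL41 itself was 26611, against 52268 for RPL4. RPL10L was lowest at 453, and RPL36A was the lowest member that is not a paralog gene, at 4807. Across the 82 members, Spearman's rho of the log2 fold change was -0.27 with coding length, -0.17 with mean count, and 0.18 with the GC content of the coding sequence. These are descriptions across genes of the same libraries, and genes are not independent replicates.

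Members were also described by sequence and position. With a TOP stretch within 5 bases of the start, 50 of 55 members were lower, with a median log2 fold change of -0.26. Without one, 11 of 12 were lower, with a median of -0.22. A row for a small nucleolar RNA (snoRNA), which guides the modification of other RNAs and is cut from introns, lay inside 26 members, of which 26 were lower with a median of -0.27. Of the other 56 members, 50 were lower, with a median of -0.26. The 16 members that overlapped the row of another gene were lower in 16 cases, with a median of -0.32, against 60 of 66 and a median of -0.26 for the rest. Of all 82 members, 92.7% were lower, against 25.0% of all genes tested, and each of these counts was near the share of all members. These features were not tested against the fold change.

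Other genes of the translation machinery were read from the same fit. Of 17 further mRNAs of the TOP class, 15 were lower and 0 higher, with a median log2 fold change of -0.31. Among all genes tested, 25.0% were lower and 25.4% higher. Of the 15 that were lower, 2 exceeded 1.5-fold, HNRNPA1 at -0.72 and NPM1 at -0.695. EEF1A1, the elongation factor that delivers tRNA, had 218097 and 227762 normalized counts with scrambled siRNA against 183936 and 183485 with RRM2 siRNA, for a log2 fold change of -0.28. EEF2, the translocation factor, had 138719 and 142370 normalized counts against 107141 and 105875, at -0.40. The 2 that did not pass were EEF1D at -0.08 and TPT1 at -0.05.

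Factors that assemble ribosomes moved further. Of 49 ribosome biogenesis factors, 43 were lower and 1 was higher (NMD3, an export adaptor of the large subunit), with a median log2 fold change of -0.45. Of those lower, 12 exceeded 1.5-fold. Among all genes tested, 25.0% were lower and 5.25% were lower by more than 1.5-fold. NCL, the nucleolar protein nucleolin, had 15799 and 15380 normalized counts against 9456 and 9578, at -0.71, and FBL, the methyltransferase of ribosomal RNA, had 3678 and 3867 against 2399 and 2371, at -0.66. For the separate ribosome of the mitochondria, 46 of 79 protein genes were lower and 4 were higher (MRPL49, MRPS6, MRPS10 and MRPS18A), with a median of -0.17. Among 974 other genes averaging 5000 normalized counts or more, 386 were lower and 295 higher, with a median of -0.03. The differences between these lists were not tested.

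**Figure D4:**
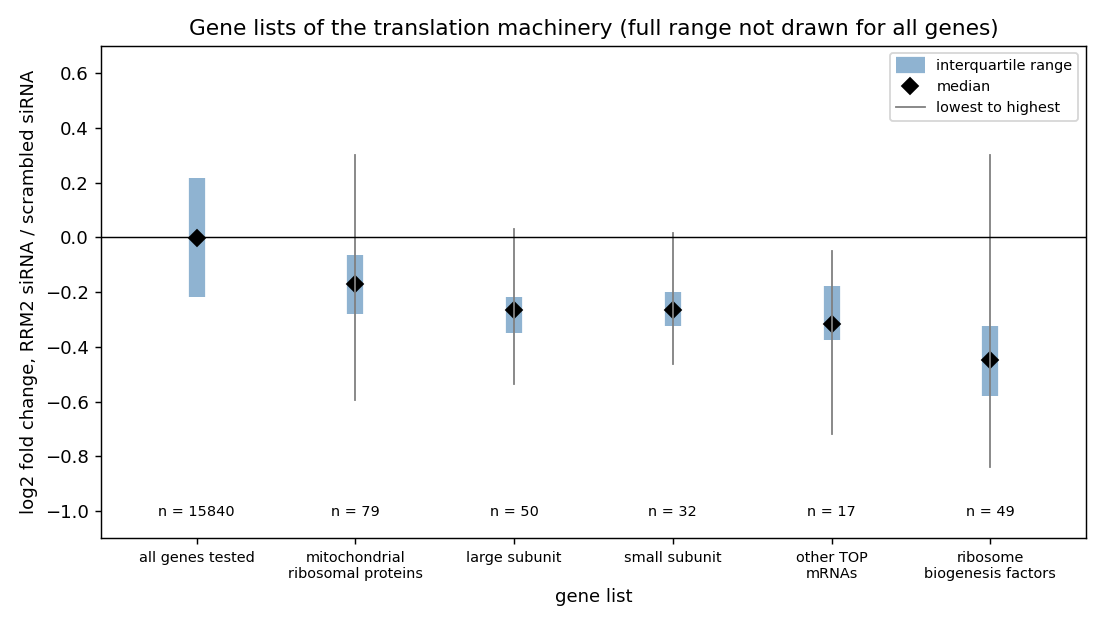
Median log2 fold change (diamonds), interquartile range (bars) and lowest to highest gene (thin lines, not drawn for all genes) for each list (x axis), with the number of genes tested. The medians run from -0.0017 for all genes through -0.17 for mitochondrial ribosomal proteins, -0.27 and -0.26 for the large and small subunit and -0.31 for other TOP mRNAs to -0.45 for ribosome biogenesis factors.

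Sequence shared with other loci limits single values. The table held 31 rows named as pseudogenes of 19 members, which together had 5.75% to 5.90% as many counts as the members. RPSA, the laminin receptor of the small subunit, had 21312 and 22108 normalized counts with scrambled siRNA, fewer than the 25116 and 26947 of its pseudogene RPSAP58, and both had a log2 fold change of -0.28. The row named RPL21 lay on chromosome 10 from 120354661 to 120355224, outside the position of RPL21 in RefSeq, while the other 81 members overlapped theirs. It was still counted among the lower members, with a log2 fold change of -0.24. Its TOP stretch and coding length were matched by symbol and so belong to RPL21 at its RefSeq position, not to the place of the row. With pseudogene rows added to their parents, 76 members were lower and the median was -0.26.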

How the data were processed

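RNA of 2 scrambled siRNA and 2 RRM2 siRNA libraries of C4-2 cells was measured. The authors used Partek Flow and deposited a table of estimated counts for each gene, without normalization. The sources used here do not give the aligner, the annotation, the strand setting or the handling of reads with several matches. Counts were rounded, filtered with filterByExpr (15840 genes left), TMM-scaled and fitted by edgeR's quasi-likelihood test (glmQLFit and glmQLFTest of version 4.0.16 in R 4.3.3), with Benjamini-Hochberg adjustment over all genes tested. No set test was run. Libraries of a group varied by 3.87% (coefficient of variation from a dispersion of 0.00150), so small changes can pass. Positions are as deposited (build not stated, 81 of 82 members overlapping their GRCh38.p14 position), with RefSeq GRCh38.p14 for names and starts and GENCODE v29 for coding lengths.

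The alternative tests were DESeq2 1.42.0 and limma voom 3.58.1. Scaling by DESeq2 size factors or by total counts, testing without a filter or with 10 counts required in each library, a replicate block, leaving out single libraries or structural RNA genes, and a fold change over 1.5 were also tried. The addition of pseudogene rows or read-through rows to their members was chosen after seeing the data. The fit was also run on simulated counts, drawn independently for each gene. They held no shift shared by the members of a library, as seen between the scrambled siRNA libraries, so they cannot speak to it.

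The members and lists were chosen with earlier results of these data known. Members described with full values were the 6 lowest and 6 highest by log2 fold change among those with a mean of at least 100, the paralogs, members of set roles and those with the highest and lowest mean; RPL22 and RPSA were added after their values were seen. Counts of all members that passed are given by group. A spreadsheet had turned 27 symbols into dates; these rows stayed in the fit and hold 0.161% to 0.172% of the counts. The results of 2 marker genes are not reported here.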

Additional observations from a re-analysis of the deposited data

How the results depend on the processing

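The number of members lower with RRM2 siRNA was 76 and ranged from 69 to 79 with each library left out in turn. It was 74 with library size alone, 75 with DESeq2 and 78 with no filter. It was 0 with a fold change over 1.5. The replicate block gave 77, with a median of -0.26. The correlation of same-numbered deviations was 0.01 over all genes and 0.21 over the members, from only 2 pairs, and no source says what the numbers share, so pairing was not assumed. With each library left out, the median log2 fold change ranged from -0.32 to -0.22 for all members, from -0.32 to -0.22 for the large subunit and from -0.32 to -0.21 for the small subunit. Of the members described in full, RPS19 ranged from -0.045 to 0.075 and RPL10L from -0.015 to 0.075 in the same fits, both reversed without scrambled siRNA replicate 1. RPL36A was at -0.12 and did not pass with read-through counts added. Of 336 alternative values of 24 members, 319 kept their direction and side of the threshold, 9 lost the call and 6 gained it. Calls of RPS15, RPS21, RPS28, RPL22 and RPL37A were also lost without 1 library, with adjusted p (edgeR) from 0.0556 to 0.279. The fits that leave out a library assume that the lone library varies like the other group. With 2 libraries a group and no statement of separate cultures, the p-values do not speak to new cultures, and the counts of a member cannot be told apart from those of its near-identical copies.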
